A study of Mus musculus with 8 samples.

Results

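Talazoparib alone was set against no drug in the MBL2 line, mouse T-cell lymphoma cells of C57BL/6 origin induced by Moloney murine leukaemia virus. The comparison was between 4 of the 8 RNA-seq libraries of the study, 2 labelled as untreated control and 2 labelled talazoparib, all collected after 24 h. The other 4 libraries came from cells given romidespin (the labels' spelling of romidepsin in that group) or talazoparib+romidepsin, 2 libraries in each group. The test fitted all 8 libraries together, so these 4 also entered the filter, the scaling and the estimate of the spread. All groups shared the same line and culture medium and received at most a single dose, so the values describe 1 tumour line at 1 time point, and no source used here gives the doses. The features compared were all 12260 genes of the deposited table, chosen by no measured value, of which 11934 passed the filter on low counts and were tested. Whether libraries of 1 group stem from separate cultures is not stated in the labels. The p-values therefore measure the spread between libraries within the 4 groups, which may be technical.

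Talazoparib inhibits PARP1 and PARP2, enzymes that sense DNA breaks and attach ADP-ribose chains to proteins at the lesion, and it holds them on DNA. Trapped enzymes obstruct replication forks, and the resulting breaks activate the kinases ATM and ATR. A main effector of these kinases is the transcription factor p53, which induces genes of cell-cycle arrest, cell death and repair, together with its own inhibitor Mdm2.

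Libraries held 28875070 to 38913292 counts in the 4 compared samples. All 8 defining T-cell markers on the list were present (Cd2, Cd247, Cd3d, Cd3e, Cd3g, Cd5, Lck and Thy1), and their summed level was 2964 and 2766 CPM (counts scaled to a common library size by TMM) in control and 2594 and 2593 CPM with talazoparib. The 45S ribosomal RNA precursor Rn45s stood at 1816 and 1381 CPM in control and 5065 and 3798 CPM with talazoparib, against 1444 to 2438 CPM in the other 4 libraries. Whether this difference in ribosomal RNA bears on other genes was not tested. Of the 4 groups, talazoparib had the least similar pair of libraries (0.439 as the root mean square of their log2 differences, 0.327 to 0.376 in the others). In a bulk sample, a change in RNA per cell and a change in the share of cells that make it cannot be told apart.

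The genes that rose included known targets of p53, so the promoters of the tested genes were searched for the p53 consensus. It spans 20 bases, built from 2 copies of a 10-base half-site, and was counted only where the 4 central bases of both copies were intact and at most 1 other base differed. Because each copy reads the same on both strands, 1 search covers both. That mismatch limit was chosen after the values were seen. RefSeq (GRCm38.p6) gave a window from 250 bases before to 50 after a start for 9536 of the 11934 tested genes (79.9%). In 6 of them (0.0629%) the consensus was found: 5 of 607 genes that rose (0.824%), 0 of 439 that fell and 1 of 8490 that were not called. The 6 elements are shown because they are all the matches under this rule. They are written 5′ to 3′ on the gene's strand, with the central bases of each half-site in capitals.
Cdkn1a: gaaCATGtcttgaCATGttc
Gtse1: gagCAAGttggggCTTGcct
Rps27l: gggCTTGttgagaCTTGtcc
Calhm2: gggCAAGcctaggCAAGatc
Gm15987: acaCAAGcctgggCTTGccc
Sptbn4: gagCTAGcctaggCTAGtct
The Cdkn1a element lies at chr17:29090928-29090947, and its centre is 41 bases before the start. The starts are those of single RefSeq transcripts: Cdkn1a, Gtse1 and Rps27l have 2 windows each, and the Gtse1 and Rps27l matches lie in the downstream one. Genes that rose had 1.31 windows on average, genes that fell 1.29 and the others 1.26. The Gtse1 element (chr15:85859945-85859964) lies across its start, and the Rps27l element (chr9:66946296-66946315) is centred 107 bases before its own. Sptbn4, the gene with no mismatch, stood at 15.4 and 17.2 CPM in control and 19.8 and 25.8 CPM after talazoparib, and did not pass the test (log2 0.49, adjusted p = 0.0774, edgeR). With up to 2 mismatches, 16 genes had a match, of which 6 rose and 1 fell. The letters CATGNNNNNNCATG, which the Cdkn1a element also contains and which leave the other bases of the consensus free, stood in 34 of all windowed genes (0.357%), 7 of the risen (1.15%) and 1 of the fallen (0.228%). A match describes letters in a window and is not evidence of binding.

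The 250 bases before the start are shown for Cdkn1a, the gene with the largest change among these 6 at more than 100 CPM after talazoparib. They lie at chr17:29090729-29090978 on the plus strand (GRCm38.p6), the element is in capitals, and the stretch belongs to the upstream one of the 2 RefSeq starts of the gene.
Cdkn1a: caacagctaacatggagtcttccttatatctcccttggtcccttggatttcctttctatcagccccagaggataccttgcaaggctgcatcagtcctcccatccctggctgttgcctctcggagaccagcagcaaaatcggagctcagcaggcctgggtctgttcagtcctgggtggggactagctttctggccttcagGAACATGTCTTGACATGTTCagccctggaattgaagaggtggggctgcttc

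Across all genes, 1321 of 11934 (11.1%) passed edgeR's quasi-likelihood test at a Benjamini-Hochberg adjusted p under 0.05, and only these are said below to have risen or fallen. Of them, 767 rose (6.43% of genes tested) and 554 fell (4.64%). Rises were larger: the median was log2 0.81 (1.76-fold) for rises and -0.49 (1.4-fold) for falls. Changes of at least 2-fold were seen for 285 rises and 29 falls, and of at least 4-fold for 63 rises and 6 falls. Genes that rose had been low, with a median of 15.9 CPM in control, and genes that fell had been high, with a median of 103 CPM, against 34.4 CPM over all tested genes. Rises made up 58.1% of the calls with TMM scaling and 68.4% with upper-quartile scaling (884 rose and 409 fell). No called gene changed direction under any of the 14 other settings tried, which refitted the same libraries or a part of them. The groups did not overlap in any called gene, so this outcome was nearly fixed and says little about the calls.

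The number of calls depended on which libraries were fitted, and the cause was not tested. Without control 1, 143 genes were called, and without control 2, 193, in fits where the lone control is assumed to vary like the other groups. Fitting only the 4 compared libraries gave 296 calls, 215 up and 81 down. A call is named here as kept where it passed without each of the 4 compared libraries in turn: 109 genes did (0.913% of those tested), 88 of them higher and 21 lower with talazoparib. All 1321 called genes had groups whose libraries did not overlap, but so did 56.7% of all tested genes.

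**Figure D1:**
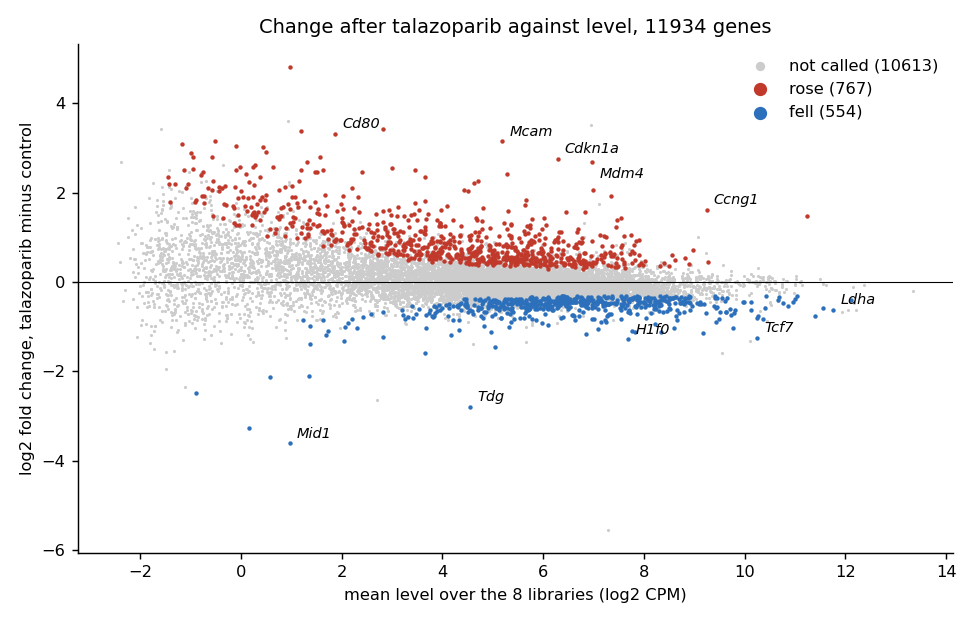
Each point is 1 of 11934 tested genes. The horizontal axis gives its mean level over the 8 libraries in log2 CPM and the vertical axis its log2 fold change, talazoparib minus control, with the 767 rises in red, the 554 falls in blue and the rest in grey; the falls lie mostly at high levels, and most large rises at low ones.

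Level and position divided the calls unevenly. Among the 2984 genes with the lowest mean level 8.38% rose and 0.771% fell, while among the 2984 with the highest 4.32% rose and 9.75% fell. The median log2 change was 0.28 in the first set and -0.09 in the second. Of 347 tested genes on the X chromosome, 2.59% rose and 8.36% fell. On the autosomes 4.69% to 8.76% rose and 2.61% to 6.35% fell. The 2978 genes with the longest span had 8.33% rises and 3.19% falls, and the 2978 with the shortest 4.94% and 4.3%. These splits are descriptions, and no test of them was made.

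Among the p53 targets of arrest and feedback, of 17 tested members 9 rose and 0 fell (52.9% called, against 11.1% over all genes), with a median log2 change of 0.78 against 0.01 over all genes. They were the CDK inhibitor gene Cdkn1a, Ccng1, Sesn2, Btg2, Zmat3, Trp53inp1, Gtse1, Mdm2 and Sfn. Ccng1 (gene ID 12450, chromosome 11, 40748552 to 40755309), which encodes cyclin G1, a recruiter of a phosphatase to Mdm2, stood at 317 and 304 CPM in control and 942 and 975 CPM with talazoparib. Both treated libraries were about as high as each other and far above both controls (log2 1.63 ± 0.102 SE, adjusted p = 0.000253, edgeR's quasi-likelihood test). Among called genes only Rn45s rose further in CPM.

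Btg2 (gene ID 12227, chromosome 1, 134074865 to 134079155), an antiproliferative cofactor of mRNA deadenylation, went from 106 and 101 CPM to 247 and 240 CPM. Zmat3 (chromosome 3, 32334792 to 32365665), an RNA-binding zinc-finger gene, went from 36.9 and 42.2 CPM to 89.9 and 91.3 CPM. Sesn2, which encodes a leucine sensor that restrains the kinase mTORC1, went from 36.7 and 35.0 CPM to 93.7 and 100 CPM. In all 3 genes the groups lay more than 2-fold apart and libraries of a group lay close together, and all 3 calls were kept. Mdm2, the ubiquitin ligase that degrades p53, rose less, from 75.5 and 71.7 CPM to 133 and 122 CPM (log2 0.79 ± 0.111 SE, adjusted p = 0.00614, edgeR).

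Of the 9 calls, 7 were kept. Mdm2 and Sfn lost theirs without control 1 and without control 2, and the highest adjusted p among the 9 was 0.149 without control 1, 0.0728 without control 2 and 0.0570 without talazoparib 2. Among the members that did not pass, the phosphatase gene Ppm1d stood at 37.2 and 35.3 CPM in control and 48.4 and 48.7 CPM with talazoparib (adjusted p = 0.0536, edgeR), with no overlap. The p53 gene itself, Trp53, had a log2 change of -0.13 ± 0.136 SE (adjusted p = 0.579, edgeR).

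Among the p53 targets of cell death, 8 of 13 tested members rose and 0 fell (61.5% called, against 11.1% over all genes). The median log2 change was 1.0, and 5 calls were kept. Pidd1 (gene ID 57913, chromosome 7, 141438113 to 141447565), the scaffold of the caspase-2 platform, went from 22.4 and 26.8 CPM to 88.5 and 73.4 CPM (log2 1.72 ± 0.207 SE, adjusted p = 0.0038, edgeR). Bax (gene ID 12028, chromosome 7, 45461695 to 45466903), the BCL2-family protein that permeabilises mitochondria, went from 90.8 and 88.6 CPM to 194 and 179 CPM (log2 1.05 ± 0.0884 SE, adjusted p = 0.000821, edgeR). The lowest treated library of each gene stood above the highest control. The death receptor gene Fas went from 17.4 and 16.1 CPM to 35.8 and 32.6 CPM, the nuclease gene Aen from 61.4 and 67.7 CPM to 148 and 147 CPM, and Ei24 from 132 and 128 CPM to 265 and 263 CPM. These 5 genes were the kept calls of the list.

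The other risen members of the death list were Zfp385a, which is not itself a cell-death effector, Bbc3 (the BH3-only protein Puma) and Siva1. Bbc3 went from 21.5 and 16.6 CPM to 44.2 and 32.3 CPM, and its call was lost without control 1, control 2 or talazoparib 1, with an adjusted p up to 0.205 (edgeR). Without either control 5 of the 8 calls of the list passed. Pmaip1, which encodes the BH3-only protein Noxa, had 4.77 and 4.22 CPM in control and 4.79 and 3.74 CPM after talazoparib, and the groups overlapped. Of the 15 tested members of the BCL2 family, 2 passed, Bax and Bbc3 (13.3%, against 11.1% over all genes).

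Targets of p53 in repair and metabolism were divided: of 17 tested, 5 rose (Ak1, Zfp365, Slc19a2, Ercc5 and Polk) and 1 fell (Polh), with a median log2 change of 0.22. The share called was 35.3%, against 11.1% over all genes. Ak1, an adenylate kinase that balances adenine nucleotides, went from 0.862 and 0.963 CPM to 5.10 and 5.37 CPM, and Zfp365 from 30.4 and 35.5 CPM to 69.2 and 83.8 CPM. Both calls were kept, while without control 1, 2 of the 6 calls passed and without control 2, 3. Polh, the polymerase that copies past ultraviolet lesions, went from 49.3 and 47.7 CPM to 38.5 and 33.9 CPM (log2 -0.42 ± 0.101 SE, adjusted p = 0.0356, edgeR), a call lost without either control or without talazoparib 2. Of the 9 adenylate and creatine kinases, 2 rose: Ak1 and the mitochondrial creatine kinase gene Ckmt1 (10.8 and 12.1 CPM against 67.3 and 56.0 CPM), whose call was also kept. These 2 are 22.2% of that list, against 6.43% that rose over all genes.

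**Figure D2:**
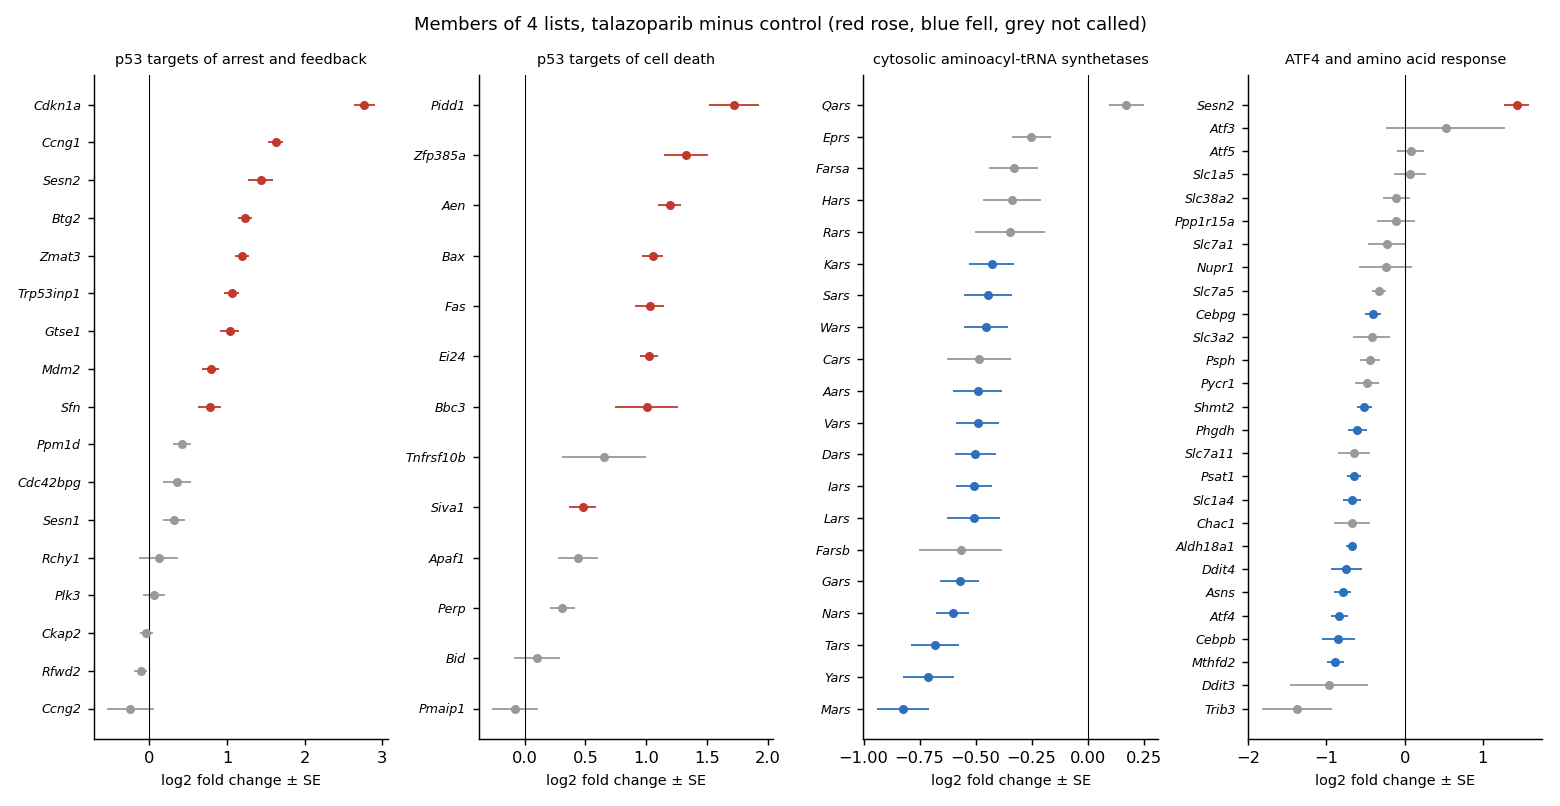
Every tested member of 4 lists is plotted by its log2 fold change, talazoparib minus control, with the SE of the fit; red members rose, blue members fell and grey ones did not pass. In both p53 lists the called members lie to the right of 0, and in the lists of tRNA synthetases and of the ATF4 response they lie to the left, except Sesn2.

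Few genes of the drug's targets and of the damage machinery passed, where 11.1% passed over all genes. Of 22 PARP and ADP-ribose genes 0 passed edgeR's test, 9 had an unadjusted p under 0.05 and 4 passed in DESeq2. Parp1 stood at 580 and 588 CPM in control and 511 and 484 CPM with talazoparib, without overlap but short of the threshold (log2 -0.23 ± 0.0750 SE, adjusted p = 0.0847, edgeR). Parp2 stood at 58.0 and 53.4 CPM in control and 49.4 and 47.2 CPM with talazoparib (adjusted p = 0.211, edgeR). Of 28 damage checkpoint genes, 1 passed, the histone gene H2afx, which fell from 91.1 and 80.6 CPM to 57.4 and 30.8 CPM. Its adjusted p of 0.0457 (edgeR) rose to 0.212 without control 1, 0.132 without control 2 and 0.0540 without talazoparib 2.

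Of 29 G1/S and S-phase genes 2 rose, E2f2 and Ccnd3, and of 28 G2 and mitosis genes 4 fell, Plk1, Cdc20, Ccna2 and Nek2. The shares called, 6.90% (rises only) and 14.3% (falls only), compare with 6.43% that rose and 4.64% that fell over all genes. The mitotic kinase gene Plk1 went from 199 and 196 CPM to 146 and 142 CPM (log2 -0.46 ± 0.0812 SE, adjusted p = 0.0147, edgeR). Mki67, a marker of proliferation, stood at 1179 and 1206 CPM in control and 882 and 1085 CPM with talazoparib (adjusted p = 0.154, edgeR). None of these 6 calls was kept: without control 1 or control 2 all 6 were lost, with adjusted p up to 0.261.

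Histone genes fell where they passed. Of 10 tested cluster genes (43 in the table) 3 fell, Hist3h2a, Hist3h2ba and Hist2h2be, and of 9 variant and linker genes 4 fell, H1f0, H3f3b, H2afz and H2afx. These falls were 30% and 44.4% of the genes tested, against 4.64% over all genes. H3f3b, one of the genes for the replacement histone H3.3, went from 922 and 759 CPM to 488 and 412 CPM (log2 -0.90 ± 0.124 SE, adjusted p = 0.00594, edgeR). The treated libraries lay well below the controls. Of the 7 calls only that of the linker gene H1f0 was kept, and the H3f3b call was lost without control 1. Histone cluster genes are near-identical copies, mostly without poly(A) tails, so their counts in a poly(A) library are uncertain.

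Of 38 interferon-stimulated genes tested, 12 rose, 1 fell and 25 did not pass (34.2% called, against 11.1% over all genes), the median log2 change was 0.33, and 34 of 38 lay above 0. Mx1 (gene ID 17857, chromosome 16, 97447035 to 97462906), an antiviral GTPase, went from 12.7 CPM in both controls to 27.4 and 33.2 CPM (log2 1.25 ± 0.137 SE, adjusted p = 0.00267, edgeR). Rsad2, the antiviral enzyme viperin, went from 80.6 and 71.7 CPM to 140 and 150 CPM, and the exonuclease gene Isg20 from 139 and 127 CPM to 243 and 217 CPM. All 3 calls were kept. The other rises were Bst2, Ifi27l2a, Ifit1, Ifit2, Ifit3, Lgals3bp, Oasl2, Phf11b and Trim30a, with log2 changes of 0.46 (Bst2) to 1.91 (Ifit3).

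With only the 4 compared libraries 4 interferon-stimulated genes rose and 1 fell. Without control 1 the interferon list kept 3 of its 13 calls and without control 2 it kept 4, with adjusted p up to 0.254. In sensing of cytosolic nucleic acids 3 of 18 tested genes rose (16.7%, against 6.43% over all genes). Ikbke, a kinase downstream of the sensors, went from 37.7 and 39.1 CPM to 64.3 and 63.0 CPM (kept), Samhd1, a hydrolase of deoxynucleotides, from 0.270 and 0.465 CPM to 2.42 and 2.07 CPM, and the DNA sensor gene Ifi204 from 27.2 and 25.1 CPM to 44.2 and 38.2 CPM. Samhd1 lost its call without control 1, and Ifi204 without control 1, control 2 or talazoparib 1. Ifit and Ifi200 genes have close paralogs, and how reads shared between copies were counted is not given in the sources used here.

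**Figure D3:**
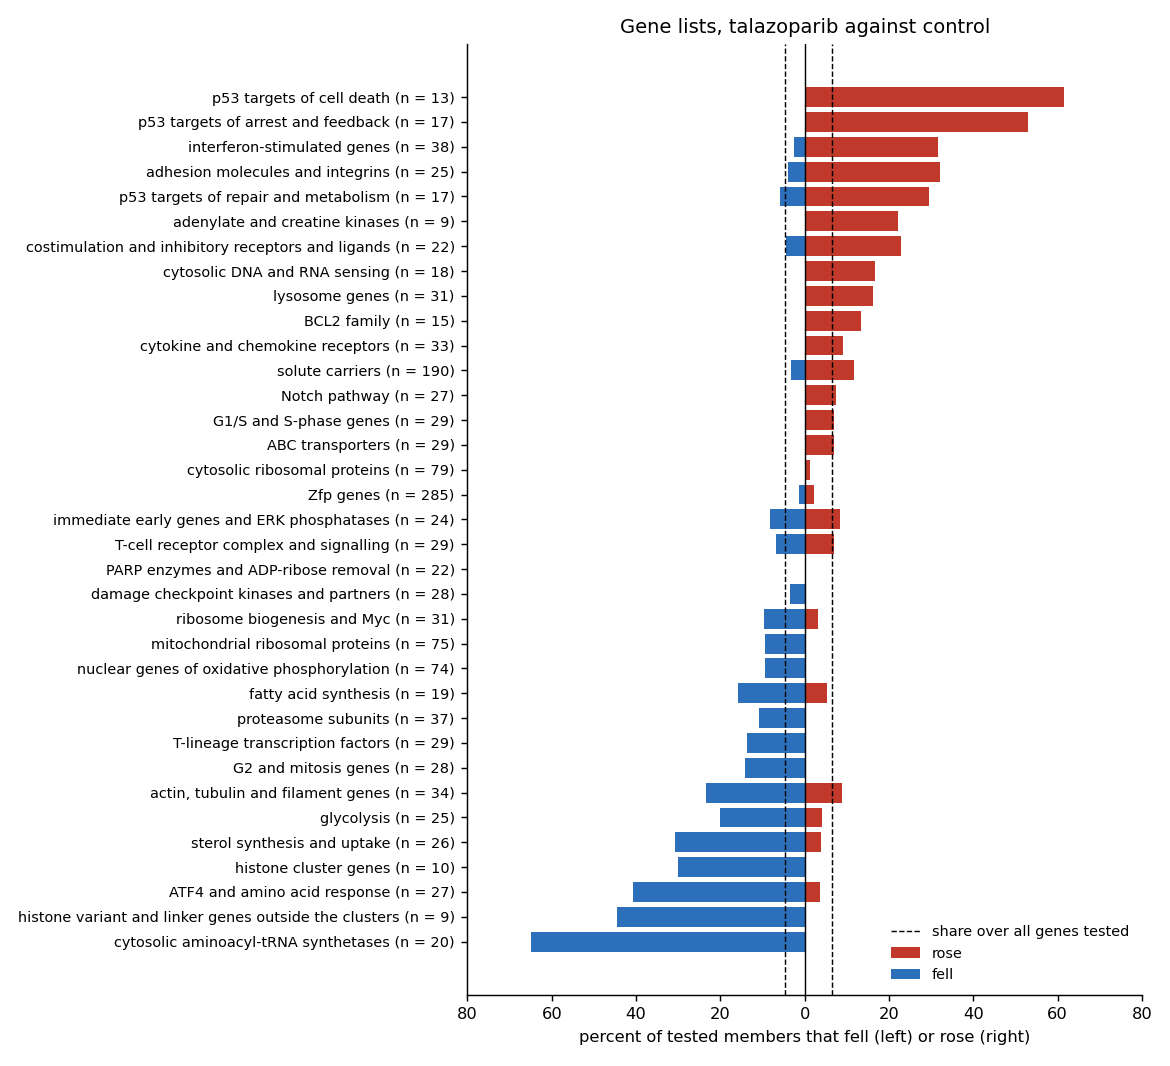
Bars give the percent of tested members that rose (red, right) or fell (blue, left) for 35 gene lists, with the number tested in brackets. Dashed lines mark the shares over all genes, 6.43% rose and 4.64% fell; the p53 lists of cell death and of arrest and feedback reach furthest to the right and the tRNA synthetases furthest to the left.

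Some of the surface molecules that T cells use to meet other cells rose, while most did not pass. Of 25 adhesion molecules and integrins 8 rose and 1 fell (36.0% called), and of 22 costimulation and inhibitory molecules 5 rose and 1 fell (27.3% called), against 6.43% that rose and 11.1% called over all genes. With only the 4 compared libraries 3 and 2 of these genes rose. Tnfsf4 (gene ID 22164, chromosome 1, 161395438 to 161418206), the OX40 ligand, went from 8.84 and 9.03 CPM to 34.2 and 39.7 CPM, a 4.14-fold rise (log2 2.05 ± 0.126 SE, adjusted p = 0.000245, edgeR). The integrin chain gene Itgam went from 3.53 and 5.01 CPM to 11.8 and 14.1 CPM, and the tetraspanin gene Cd81 from 70.0 and 58.5 CPM to 122 and 106 CPM. In each gene the treated libraries stood apart from the controls. Mcam, Itgam, Tnfsf4 and Cd80 were the kept calls of these lists.

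Other risen surface genes were Cd44, Itga2, Itgb7 and Spn for adhesion, and Btla, Icos and Pdcd1lg2 for costimulation, with Cd82 and Pdcd1 falling. Pdcd1, the inhibitory receptor PD-1, went from 282 and 298 CPM to 194 and 233 CPM (log2 -0.44 ± 0.112 SE, adjusted p = 0.0431, edgeR), while the PD-1 ligand gene Pdcd1lg2 went from 1.21 and 1.20 CPM to 3.37 and 3.54 CPM. Both calls were lost without either control. Without control 1, 3 of the 9 adhesion calls and 2 of the 6 costimulation calls remained, and without control 2, 2 and 3. Among 33 cytokine and chemokine receptors 3 rose (9.09%, against 6.43% that rose over all genes). They were Il2rb, Ccr7 and Tnfrsf18. Il2rb, a subunit of the interleukin-2 receptor, went from 25.3 and 26.8 CPM to 49.1 and 54.5 CPM, and its call was kept. The Ccr7 call was lost without control 2, and that of Tnfrsf18 without control 1, control 2 or talazoparib 1.

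Of 27 Notch pathway genes 2 rose, both receptors, and both calls were kept. Notch3 (gene ID 18131, chromosome 17, 32120820 to 32166896) went from 43.5 and 45.7 CPM to 114 and 151 CPM (log2 1.57 ± 0.167 SE, adjusted p = 0.00253, edgeR). Notch1 (gene ID 18128, chromosome 2, 26457902 to 26503822), which directs commitment to the T lineage, went from 39.8 and 38.6 CPM to 82.0 and 108 CPM (log2 1.28 ± 0.152 SE, adjusted p = 0.00369, edgeR). In both genes talazoparib 2 was the higher treated library. At 7.41%, rises only, the share called in the pathway was near the 6.43% that rose over all genes.

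Of 29 transcription factors on the T-lineage list 4 fell, Tcf7, Pou2f2, Ikzf1 and Gata3, with a list median of 0.04. Pou2f2, which is not specific to T cells, went from 151 and 173 CPM to 59.5 and 85.4 CPM. The share called, 13.8%, held falls only, against 4.64% that fell and 11.1% called in either direction over all genes. Ikzf1 (gene ID 22778), which encodes Ikaros, went from 538 and 579 CPM to 228 and 323 CPM (log2 -1.02 ± 0.172 SE, adjusted p = 0.0124, edgeR), and Gata3, a factor of T-helper cells, from 203 and 189 CPM to 129 and 102 CPM (log2 -0.76). Ikzf1 lost its call without either control, and only the Tcf7 call was kept. In T-cell receptor signalling 2 of 29 genes rose (Cd4 and Cd6) and 2 fell (Ptpn6 and Cd3d), again 13.8% called. The phosphatase gene Ptpn6 went from 807 and 764 CPM to 578 and 515 CPM, and Cd4 from 1.86 and 1.56 CPM to 3.31 and 5.97 CPM, so the line carried little Cd4 transcript in either group. All 4 calls were lost without either control, with adjusted p up to 0.277.

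**Figure D4:**
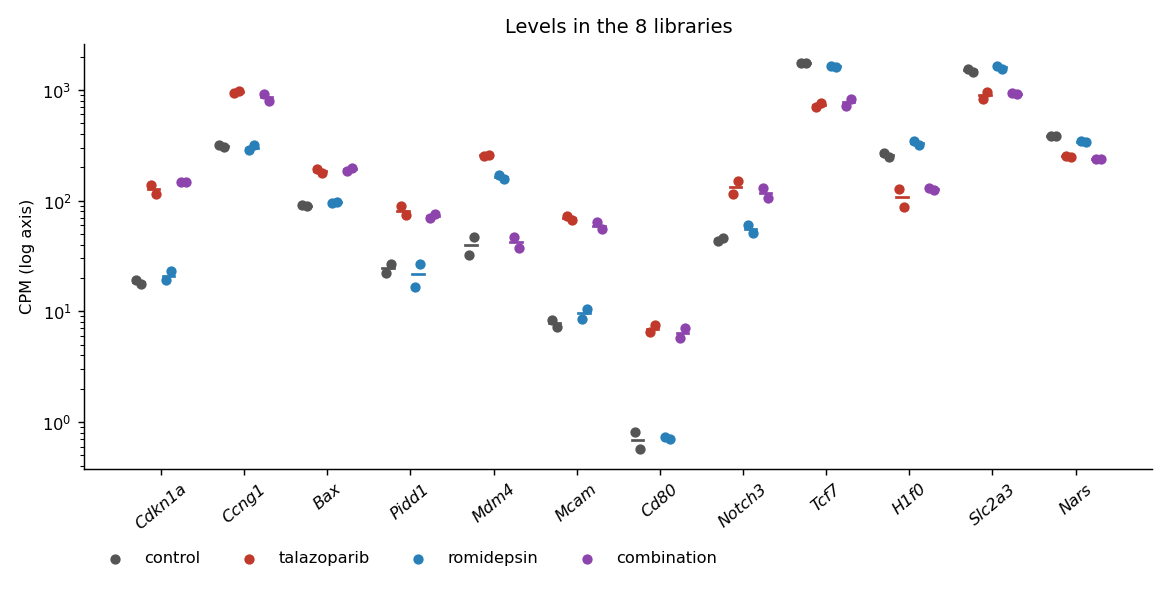
Levels of 12 genes in all 8 libraries, in CPM on a log axis; each point is a library and each bar a group mean. For the genes other than Mdm4, the talazoparib and combination libraries lie on one side and the control and romidepsin libraries on the other.

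The largest group of falls was that of the cytosolic aminoacyl-tRNA synthetases, the enzymes that charge tRNAs with amino acids. Of 20 tested genes 13 fell and 0 rose. The share called, 65.0%, compares with 11.1% called and 4.64% that fell over all genes. The median log2 change was -0.49, and 19 of 20 lay below 0. Nars (gene ID 70223, chromosome 18, 64499655 to 64516515), for asparagine, stood at 380 and 382 CPM in control and 253 and 250 CPM with talazoparib (log2 -0.60 ± 0.0735 SE, adjusted p = 0.00381, edgeR). Mars (gene ID 216443), for methionine, went from 160 and 173 CPM to 88.0 and 100 CPM, and Gars, for glycine, from 448 and 430 CPM to 305 and 286 CPM. The groups lay apart in each gene, by less than 2-fold. The others that fell were Aars, Dars, Iars, Kars, Lars, Sars, Tars, Vars, Wars and Yars.

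Qars, for glutamine, was the member above 0, with 244 and 233 CPM in control and 278 and 261 CPM with talazoparib (adjusted p = 0.187, edgeR). Of the synthetase calls only that of Nars was kept. With only the 4 compared libraries 5 of the 13 passed. In the fits that left out 1 of the 4 libraries, the 13 had log2 changes of -0.35 to -0.92. Their groups did not overlap in the full data, so a change of sign there was hardly possible.

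The Atf4 list holds genes induced by Atf4, the transcription factor of the amino acid and integrated stress response. Of 27 tested, 11 fell and 1 rose (44.4% called, against 11.1% over all genes), with a median log2 change of -0.51. Atf4 itself went from 257 and 222 CPM to 140 and 129 CPM (log2 -0.84 ± 0.112 SE, adjusted p = 0.00563, edgeR). Asns, asparagine synthetase, went from 1598 and 1474 CPM to 968 and 803 CPM, and the proline synthesis gene Aldh18a1 from 256 and 259 CPM to 158 and 163 CPM. Mthfd2, a mitochondrial folate enzyme, went from 196 and 178 CPM to 109 and 93.3 CPM. In these 4 genes both treated libraries lay below both controls.

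The serine synthesis genes Phgdh and Psat1, with Shmt2, Slc1a4, Cebpb, Cebpg and Ddit4, completed the falls of the Atf4 list. The rise was Sesn2, which is also on the p53 list. Ddit3 and Trib3, targets of the same response, varied widely within groups: Trib3 stood at 39.0 and 27.7 CPM in control and 18.4 and 7.24 CPM after talazoparib and did not pass (adjusted p = 0.0885, edgeR). Of the 12 calls, those of Sesn2, Aldh18a1 and Mthfd2 were kept. Without control 1, 3 of the 12 passed, and without control 2, 6.

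Of 25 glycolysis genes 5 fell (Slc2a3, Pfkp, Ldha, Gpi1 and Pgk1) and 1 rose (Ldhb), 24.0% called against 11.1% over all genes, with a median log2 change of -0.42. With only the 4 compared libraries 1 of them fell. Slc2a3 (gene ID 20527, chromosome 6, 122727809 to 122802363), the glucose transporter GLUT3, went from 1554 and 1448 CPM to 825 and 958 CPM (log2 -0.75 ± 0.0941 SE, adjusted p = 0.00423, edgeR), and its call was kept. The lactate dehydrogenase gene Ldha went from 4358 and 3868 CPM to 3011 and 2343 CPM, the largest fall in CPM among the genes eligible to be named. Ldhb, the other lactate dehydrogenase chain, went from 105 and 97.0 CPM to 139 and 133 CPM. Without control 1 or control 2, 1 of the 6 glycolysis calls remained, with adjusted p up to 0.253.

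In sterol synthesis and uptake 8 of 26 tested genes fell (Insig1, Lss, Hmgcs1, Cyp51, Fdps, Msmo1, Pmvk and Sqle) and 1 rose (Scap), with a median log2 change of -0.41. The share called was 34.6%, against 11.1% over all genes. Insig1, which holds the sterol-regulated factors SREBP in the endoplasmic reticulum and is itself one of their targets, went from 186 and 177 CPM to 95.8 and 78.9 CPM (log2 -1.05 ± 0.143 SE, adjusted p = 0.00571, edgeR). Hmgcs1, which makes the precursor of mevalonate, went from 485 and 518 CPM to 279 CPM in both treated libraries. Scap, the escort of SREBP, went the other way, from 75.5 and 79.2 CPM to 110 and 112 CPM. In fatty acid synthesis 3 of 19 fell (Scd1, Scd2 and Acly) and 1 rose (Me1), or 21.1% called. Without control 1, 0 of these 13 calls passed in edgeR (adjusted p up to 0.250), while the full 8-library fit gave 18 sterol and 12 fatty acid genes at an unadjusted p under 0.05 and DESeq2 called 15 and 6.

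Actin and filament genes were divided. Of 34 tested, 8 fell (Actg1, Actb, Acta2, Cnn2, Lmnb1, Cfl1, Pfn1 and Tpm3) and 3 rose, among them Des and Tubb2b. The share called was 32.4%, against 11.1% over all genes. Acta2, smooth-muscle actin, went from 170 and 178 CPM to 95.3 and 100 CPM, and the calponin gene Cnn2 from 103 and 104 CPM to 65.3 and 56.0 CPM. These 2 calls and that of the desmin gene Des (3.77 and 3.99 CPM against 23.7 and 15.8 CPM) were kept. Actb and Actg1 share most of their coding sequence and have many pseudogenes, so their split of reads is uncertain, and Actg1 differed widely between the treated libraries, 270 and 535 CPM. Without control 1 or control 2, 3 of the 11 calls passed.

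In the general machinery of growth the shares called lay near the 11.1% called over all genes in either direction. Most of these calls were falls, and over all genes 4.64% fell and 6.43% rose. Myc, the growth regulator, went from 118 and 134 CPM to 62.0 and 78.0 CPM (log2 -0.85 ± 0.148 SE, adjusted p = 0.0137, edgeR, lost without either control). Of 31 genes of ribosome biogenesis and Myc 3 fell and 1 rose (12.9% called). Among mitochondrial ribosomal proteins 7 of 75 fell (9.33%), among nuclear genes of oxidative phosphorylation 7 of 74 (9.46%), and among proteasome subunits 4 of 37 (10.8%), with medians of -0.17, -0.14 and -0.24 and 0 rises in each list. None of these 22 calls passed without control 1 or without control 2, with adjusted p up to 0.257.

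Of 79 cytosolic ribosomal protein genes, 1 passed, Rps27l (1.27%, against 11.1% over all genes). Rps27l, a known p53 target in human and mouse cells, rose from 142 and 138 CPM to 241 and 257 CPM (log2 0.83 ± 0.128 SE, adjusted p = 0.00931, edgeR). Its call was lost without control 1 (adjusted p = 0.0770) and without control 2 (0.0749). Its close paralog Rps27 stood at 6.90 CPM in control 1, 544.5 CPM in control 2 and 5.89 and 5.94 CPM with talazoparib, so 1 library alone carried it. How reads were divided between such copies is not given in the sources used here.

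Among transporters, 22 of 190 solute carriers rose and 6 fell (14.7% called, against 11.1% over all genes). Slc37a2, a sugar-phosphate exchanger, went from 16.5 and 15.9 CPM to 36.8 and 46.3 CPM, the kept rise of the list. The thiamine transporter gene Slc19a2, also on a p53 list, went from 15.8 and 16.8 CPM to 29.8 and 38.1 CPM, and its call was lost without control 1. Of 29 ABC transporters 2 rose, Abcb1b (kept) and Abcc5 (lost without control 1, control 2 or talazoparib 2). Abcb1a, the near copy of Abcb1b, had 0.350 and 0.233 CPM in control and 0.945 and 6.37 CPM after talazoparib and did not pass (adjusted p = 0.0668, edgeR). Of 31 lysosome genes 5 rose, Ctsd, Laptm5, Man2b1 and Neu1 among them, and 0 fell. These rises were 16.1% of the list, and those of the ABC transporters 6.90%, against 6.43% over all genes. Cathepsin D (Ctsd) went from 174 and 158 CPM to 252 and 260 CPM. Leaving out control 1 ended 25 of the 28 solute carrier calls and 3 of the 5 lysosome calls, and leaving out control 2 ended 23 and 4.

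Immediate early genes and ERK phosphatases were divided, with 2 of 24 up (Ier5 and Dusp2) and 2 down (Etv4 and Myc). The share called was 16.7%, against 11.1% over all genes. Ier5, an early gene that activates heat shock factor, went from 36.8 and 36.7 CPM to 69.0 and 63.1 CPM, and its call was kept, while those of Dusp2, Etv4 and Myc were lost without either control. Of 285 Zfp genes 6 rose and 4 fell, 3.51% called and so below the share over all genes, and 1 of these 10 calls passed without control 1 or control 2. Among the kept rises outside the lists were those of Mdm4, given with the second comparison, Ptp4a3 and Exoc4. The phosphatase gene Ptp4a3 (gene ID 19245, chromosome 15, 73723145 to 73758766), known as a p53-inducible cell-cycle regulator in mouse fibroblasts, went from 46.9 and 53.2 CPM to 210 and 208 CPM (log2 2.06 ± 0.103 SE, adjusted p = 9.34e-05, edgeR). The exocyst gene Exoc4 (chromosome 6, 33249090 to 33973979) went from 106 and 100 CPM to 290 and 265 CPM.

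Of the falls outside the lists, Gtdc1 (chromosome 2, 44564412 to 44927717), a glycosyltransferase-like gene, went from 19.1 and 18.1 CPM to 7.18 and 5.17 CPM (log2 -1.59 ± 0.193 SE, adjusted p = 0.00381, edgeR). Aasdhppt, which activates acyl carrier protein, went from 47.8 and 48.7 CPM to 15.8 and 19.2 CPM, Ifrd1 from 42.7 and 41.8 CPM to 21.2 and 17.9 CPM, and the X-linked exchange factor gene Fgd1 from 297 and 278 CPM to 151 and 118 CPM. The groups did not overlap in any of the 4 genes, and their calls were kept.

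Several genes that mark other blood lineages rose from low levels, while their defining markers were largely not listed in the table. Of 7 B-cell markers 3 were listed and all 3 rose (Cd79b, Blk and Ebf1), with a summed level of 45.1 and 48.8 CPM in control and 65.4 and 73.5 CPM with talazoparib. Cd79a, Ms4a1 and Pax5 were among those not listed. Of 12 myeloid markers 3 were listed and 2 rose, Lyz2 and Itgam, with a summed level of 17.3 and 15.1 CPM against 44.3 and 38.0 CPM, and Csf1r, Adgre1, Mpo, Elane, Spi1, Cd14, S100a8, S100a9 and Fcgr3 were not listed. The lysozyme gene Lyz2 went from 3.61 and 3.55 CPM to 11.7 and 11.5 CPM (log2 1.69 ± 0.141 SE, adjusted p = 0.000821, edgeR).

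Of 5 plasma-cell markers 4 were listed and 2 rose, Irf4 and Mzb1, at sums of 198 and 180 CPM in control and 197 and 212 CPM with talazoparib. The list was divided: 1 of the 4 lay below 0 (log2 -0.36), with an unadjusted p under 0.05 in edgeR, and did not pass. Irf4, a factor of activated lymphocytes and plasma cells, went from 8.97 and 10.7 CPM to 25.7 and 25.8 CPM. Spib, an Ets factor of B cells and plasmacytoid dendritic cells, went from 8.97 and 7.71 CPM to 39.2 CPM in both treated libraries (log2 2.23 ± 0.154 SE, adjusted p = 0.000461, edgeR). Of 6 NK-cell markers 4 were listed and 1 rose, Nkg7, of 7 stromal markers 4 were listed with 2 rising (Pdgfra and Pdgfrb) and Acta2 falling, and of 6 erythroid markers 2 were listed and 0 passed in edgeR (0 at an unadjusted p under 0.05 and 0 in DESeq2). The B-cell calls and the Pdgfra and Pdgfrb calls were lost without control 1 or control 2, and those of Lyz2, Itgam, Irf4, Mzb1 and Nkg7 were kept.

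A second measurement of talazoparib came from cells that also received romidepsin, a histone deacetylase inhibitor: the combination against romidepsin alone, which shares no library with the comparison above. There 1397 of 11934 genes were called (11.7%), 836 up (7.01%) and 561 down (4.7%). Without romidepsin 1, romidepsin 2, combination 1 or combination 2, 268, 180, 282 and 156 genes were called. Of the 1321 genes called for talazoparib alone, 1312 (99.3%) had the same sign, against 80.6% of all tested genes, and 874 were called in the same direction, which is 66.2% of the calls for talazoparib alone and 62.6% of those beside romidepsin. The share was 69.8% for rises and 61.2% for falls, with medians of log2 0.69 and -0.41 in the second comparison. Across the 1321 genes, which are not independent replicates and were fitted with a shared spread, Pearson's r was 0.918, and over all tested genes it was 0.761. Both are descriptions with no test, and the first is over genes chosen for a change on one of its axes. Of the 109 kept genes 105 were called again in the same direction.

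**Figure D5:**
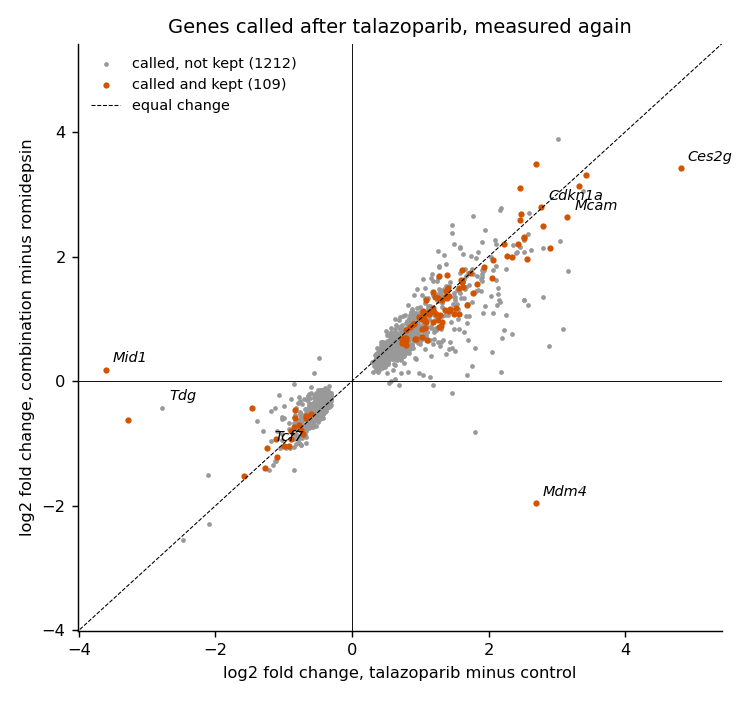
Each point is 1 of the 1321 genes called for talazoparib against control. The horizontal axis gives that log2 fold change and the vertical axis the log2 fold change of the combination against romidepsin; the 109 kept genes are orange, the dashed line marks equal change, and most points lie near it while Mdm4 and Mid1 lie in other quadrants.

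In the second comparison the arrest list had 11 rises and 0 falls of 17, the death list 7 and 0 of 13, the tRNA synthetases 0 and 13 of 20, the Atf4 list 1 and 14 of 27, the interferon list 17 and 1 of 38, and sterol synthesis 1 and 8 of 26. Not all counts were close: the interferon list had 17 rises there against 12 for talazoparib alone, glycolysis 11 falls against 5, proteasome subunits 1 against 4, actin and filament genes 5 rises and 4 falls against 3 and 8, and Zfp genes 11 and 12 against 6 and 4. Ccng1, of the arrest list, stood at 287 and 316 CPM with romidepsin and 926 and 790 CPM with both drugs, and Nars at 346 and 338 CPM against 236 and 237 CPM. Whether the counts of any list differed between the comparisons was not tested.

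The sign was opposite in 9 genes, among them Mdm4, Mid1, Rp2, 2810021J22Rik, Rapgef3, Gm11696, Rn45s and Mir6236. Mdm4, an inhibitor of p53, was the one called with opposite directions and kept, with 32.2 and 47.4 CPM in control, 254 and 259 CPM after talazoparib, 171 and 155 CPM with romidepsin and 46.7 and 37.4 CPM with both. Rapgef3, an exchange factor activated by cyclic AMP, was called in opposite directions at smaller size, with log2 -0.48 alone and 0.37 beside romidepsin. Mid1, an X-linked ubiquitin ligase, stood at 2.45 and 3.15 CPM in control and 0.378 and 0.0667 CPM after talazoparib, and at 1.77 to 2.78 CPM in the other 4 libraries. Over all genes, 2 of 11934 had an interaction that passed (0.0168%), Mdm4 and Fam134c.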

How the data were processed

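RNA was taken from MBL2 cells after 24 h in 4 groups of 2 libraries, and groups came from the sample titles. The authors used the genome build mm10, HISAT2 and StringTie, per the submitters' processing notes, with versions not given in the sources used here. They deposited raw read counts per gene, whole numbers by the values, per the file headers. FPKM values that the authors deposited served here only to name genes, and log2 values deposited by the authors entered no test. The authors' own fold changes and p-values were not used. Whether strand was used in counting is not given in the sources used here, so overlapping genes are uncertain. No listed gene lacks reads in any library, so genes silent in 1 or more of them are not analysed here.

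Counts were filtered with filterByExpr, scaled by TMM factors of 0.954 to 1.04, and modelled in edgeR 4.0.16 in R 4.3.3, with 1 mean per group over all 8 libraries (4 residual degrees of freedom, biological coefficient of variation 12.9%), and tested by quasi-likelihood with Benjamini-Hochberg adjustment over 11934 genes. The TMM factors were 0.954 to 0.980 in the control and romidepsin libraries and 1.026 to 1.044 in the talazoparib and combination libraries. They thus differed with talazoparib in both comparisons. SE is that of the fitted log2 change. Library totals were 28419156 to 38913292 counts. Scripts were tested on simulated data. Alternatives were DESeq2 1.42.0, other scalings, no filter, a replicate block, other thresholds, only the compared libraries, and each library left out. Coordinates are those of RefSeq genes on GRCm38, for 11912 of the tested genes, matched by gene ID.

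Genes named were the 15 largest rises and falls at 2 or more FPKM without overlap, the 10 largest in CPM, up to 3 called members per list and direction, and a fixed few. The rule covers 150 genes, of which the text gives values for a part. All called members of several lists, and members that did not pass, were named in addition, after their values were seen. The genes, 35 lists and 7 marker lists were chosen with earlier results of these data known. A few genes are counted but not reported here by name.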

Additional observations from a re-analysis of the deposited data

Results flagged for a closer look

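In 2 genes the effect of talazoparib differed between cells with and without romidepsin by edgeR's interaction test. For Mdm4 the effects differed by log2 -4.64 (adjusted p = 0.00105): 32.2 and 47.4 CPM in control against 254 and 259 CPM after talazoparib, and 171 and 155 CPM with romidepsin against 46.7 and 37.4 CPM with both drugs. For Fam134c, a receptor of endoplasmic reticulum autophagy, the effects differed by log2 -1.79 (adjusted p = 0.0159). Its levels were 88.7 and 88.0 CPM in control, 102 and 97.9 CPM after talazoparib, 86.7 and 98.7 CPM with romidepsin and 33.2 and 27.7 CPM with both, so the low libraries were those of the combination. The effect of talazoparib alone on Fam134c did not pass (log2 0.18, adjusted p = 0.305).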

How the results depend on the processing

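For talazoparib against control, 1321 calls became 860 with the replicate block (346 falls), 296 with only the 4 compared libraries (215 rises and 81 falls), 251 at an adjusted p under 0.01 and 314 with at least a 2-fold change. Leaving out 1 library at a time gave 143 to 1516 calls, 113 to 890 rises and 30 to 626 falls, and for the combination against romidepsin 156 to 1990 calls. The interaction gave 7 calls with DESeq2, 1 with the replicate block and 1 to 8 with 1 library left out. DESeq2 called 1828 genes for talazoparib, upper-quartile scaling 1293, RLE scaling 1340 and no filter 1296. The cause of these shifts was not tested, beyond the smaller number of libraries in the fits that leave some out. No call changed direction under any setting, an outcome nearly fixed beforehand because the groups did not overlap in any called gene. Of 147 named calls, 91 were lost without control 1, 87 without control 2, 68 with only the compared libraries, 23 with the block and 0 with DESeq2. Whether replicate numbers pair the samples was not tested. Deviations of same-numbered libraries correlated at -0.333 to 0.287 over pairs of groups, and the highest value was that of control and talazoparib. With 2 libraries a group, small changes of low genes could not be resolved.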
